A study of Mus musculus with 2 samples.

Results

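To follow the MSL and NSL complexes at the genes that build the primary cilium, ChIP-seq reads of Msl1 and Nsl1 were counted at the TSSs of 39 ciliary transport and basal body genes, out of 22359 protein-coding genes of the mm9 annotation. The genes were chosen by name as subunits of the intraflagellar transport (IFT) particles and their motors, of the BBSome and its assembly factors, and of centrioles and basal bodies, together with 3 ciliary Arl GTPases. All 39 were found in the annotation. They were listed with earlier results of these data known.

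Both libraries came from wild type mESCs on the 129P2/OlaHsd background at passage 26, labelled E14, with no treatment named. The cells were fixed with formaldehyde, and the polyclonal rabbit antibody anti-Msl1 or anti-Nsl1 was used, with 1 library for each. Msl1 is a subunit of the MSL complex and Nsl1, the product of Kansl1, of the NSL complex, and both complexes contain the histone acetyltransferase Mof. The libraries also differed in preparation kit, NEXTFlex for Msl1 and NEBNext for Nsl1, and in read length, 50 bases for Msl1 and 36 bases for Nsl1, so that antibody, kit and read length cannot be told apart. After 1 read was kept per position and strand, 19483142 Msl1 reads and 24883001 Nsl1 reads were left. With 1 library per antibody no test between the libraries was possible, and the differences given are between these libraries.

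The primary cilium is a microtubule-based antenna that grows from a basal body, a modified mother centriole, and Hedgehog receptors signal from its membrane. Kinesin-2 carries IFT trains, made of the IFT-B and IFT-A complexes, towards the tip, and cytoplasmic dynein-2 brings them back. The BBSome, a coat complex recruited to membranes by the GTPase Arl6, moves membrane proteins out of the cilium, and mutations of its subunits cause Bardet-Biedl syndrome. Many genes of this machinery carry the X-box, a palindromic element bound by Rfx transcription factors.

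The X-box is shown first because it is the promoter element best known from ciliary genes. It was searched as GTTNCC followed by GGNAAC with 1 to 3 bases between them, on both strands from 250 bases before to 50 bases after the TSS. It was found at 6 of the 39 genes, 15.4%, whereas 0.675% of all protein-coding genes held it. In the following stretches of mm9, written 5′ to 3′ on the strand of the gene, the matches are in capitals. They lie at chr19:46647578-46647607 (minus strand) for Arl3, chr16:59638978-59639007 (minus) for Arl6, chr3:36512411-36512440 (minus) for Bbs7, chr16:3908608-3908637 (plus) for Cluap1, chr17:85025785-85025814 (plus) for Dync2li1 and chr16:49699339-49699368 (plus) for Ift57.
Arl3: cgcagcaGTTACCCCTGGTAACgggggagg
Arl6: aagctcccGTTGCCAAGGGAACgccgcgcg
Bbs7: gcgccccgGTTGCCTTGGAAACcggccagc
Cluap1: gctccacaGTTTCCAGGGCAACctctggcg
Dync2li1: gtgacgtcGTTGCCATGGCAACcgaggagc
Ift57: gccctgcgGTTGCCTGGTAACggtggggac

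The Dync2li1 element is a perfect palindrome in these letters, GTTGCCATGGCAAC. In 4 of the genes the element lay between positions -44 and -11 from the TSS, at Cluap1 it lay from -209 to -196, and at Ift57 it lay on the first transcribed bases. The single arm GTTGCC was found at 15 of the 39 genes, 38.5%, against 12.0% of all genes, and at 5 of these 15 it was part of a full X-box.

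A further set of sequences, chosen with their values known, is shown because the ETS core CCGGAAG was the motif whose 9 carriers among the members all lay past 3 times the local level for Nsl1. These are the 150 bases upstream of Ift88 (chr14:58042749-58042898, plus strand), Poc1a (chr9:106183242-106183391, plus) and Poc5 (chr13:97158099-97158248, plus) in mm9. The core is in capitals and is read here from the opposite strand as CTTCCGG. The Ift88 stretch holds it at 2 places.
Ift88: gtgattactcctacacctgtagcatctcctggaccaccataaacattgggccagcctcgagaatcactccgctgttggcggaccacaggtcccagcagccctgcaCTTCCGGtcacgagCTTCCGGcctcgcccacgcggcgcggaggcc
Poc1a: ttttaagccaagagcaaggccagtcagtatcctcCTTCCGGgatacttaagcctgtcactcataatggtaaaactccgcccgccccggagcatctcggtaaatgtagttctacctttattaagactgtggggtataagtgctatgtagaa
Poc5: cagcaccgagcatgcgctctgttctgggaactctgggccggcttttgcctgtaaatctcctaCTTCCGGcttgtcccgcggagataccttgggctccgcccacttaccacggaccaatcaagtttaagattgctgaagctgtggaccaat

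Each gene was given a ratio in each library. It sets the reads found within 500 bases of the TSS over the local level, meaning the mean reads per kb of the stretches 5 to 50 kb away on either side. A ratio of 1 is therefore the level of the surroundings, which for genes longer than 5 kb include part of the gene itself. Positions given with a gene are its TSS in mm9. The exact 95% Poisson intervals, given in parentheses, cover counting error only, since PCR reads without molecular identifiers are not independent molecules. At the 39 TSSs the windows held 6 to 58 Msl1 reads and 13 to 126 Nsl1 reads, while the local level ranged from 6.30 to 20.1 reads per kb for Msl1 and from 7.71 to 21.0 for Nsl1.

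At 3 times the local level, the ciliary genes were marked by Nsl1 far more often than protein-coding genes in general, and by Msl1 at about the general level. Nsl1 reached at least 3 times the local level at 31 of 39 TSSs, 79.5%, where 24.3% of the 21738 genes with enough local reads did so. For Msl1 it was 7 of 39, 17.9%, against 24.0% of all genes. The median ratio of the members was 4.38 for Nsl1 and 2.11 for Msl1, compared with 1.72 and 1.87 over all genes. Thus the libraries stood at similar levels over all TSSs and apart at these. The counts moved with the window and the denominator. Within 1000 bases of the TSS they were 17 for Nsl1, 43.6% against 13.7% of all genes, and 4 for Msl1, 10.3% against 18.5%. Over the genome level in place of the local level they were 34 for Nsl1, 87.2% against 33.1%, and 16 for Msl1, 41.0% against 43.3%. The members were also longer, with a median gene length of 42915 bases against 15814.5 over all genes. Over 21320 genes the log2 ratios rose with log2 gene length, at Pearson's r of 0.325 for Msl1 and 0.222 for Nsl1. Among the members r was -0.086 and -0.292. An effect of length was not tested.

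At a lower threshold, a ratio of at least 2, 36 members passed for Nsl1, 92.3% against 41.8% of all genes, and 25 for Msl1, 64.1% against 46.5%. A ratio of at least 5 was reached by 13 members for Nsl1, 33.3% against 9.99% of all genes, and by 0 members for Msl1 against 3.68% of all genes. The Poisson interval lay above the local level at 37 members for Nsl1, 94.9% against 51.8%, and at 29 for Msl1, 74.4% against 54.1%. Most of these TSSs therefore held some excess of Msl1 reads, but a small one. Just inside and just outside 3 times the local level were Cluap1 (3.30) and Ttc8 (2.92) for Msl1, and Kif3a (3.004) and Ttc21b (2.93) for Nsl1.

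**Figure D1:**
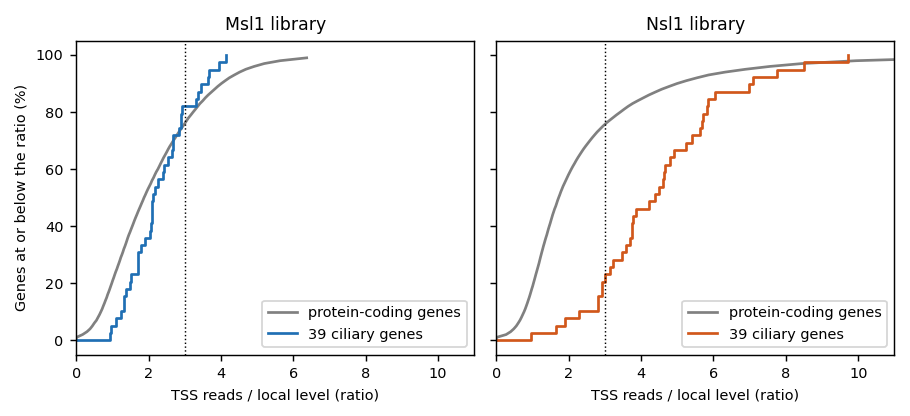
Cumulative share of genes (vertical axis, %) at or below each ratio of TSS reads to the local level (horizontal axis) in the Msl1 library (left) and the Nsl1 library (right). The step line shows the 39 ciliary genes and the grey line all protein-coding genes up to their 99th percentile or the edge of the axis; the dotted line marks 3, which 7 members reached for Msl1 and 31 for Nsl1.

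When both libraries were read together, 24 of the 39 TSSs passed 3 times the local level for Nsl1 alone, 61.5% against 12.3% of all genes. Both libraries passed at 7 TSSs, 17.9% against 12.0%, namely Cluap1, Ift88, Ift57, Ift81, Ift140, Kif3b and Arl6. Passing for Msl1 alone was seen at 0 members against 12.0% of all genes, and 8 passed for neither, 20.5% against 63.7%. The count for Msl1 alone was 2 in windows of 1000 bases (Ift57 and Kif3b), against 12.2% of all genes, 1 with all reads kept (Ttc8), against 12.0%, and 1 over the genome level (Cep290), against 17.0%. It was 0 in windows of 250 bases, against 9.24%, and 0 with the most upstream TSS, against 11.7%. At 18 members the interval of Nsl1 lay wholly above that of Msl1, 46.2% against 10.7%, and the opposite was found at 0 members against 6.4%. At Bbs9, Cep290, Ift57 and Ttc8 the Msl1 ratio was nominally the higher, each with overlapping intervals. The share of all genes with this order was not counted.

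The IFT-B complex, which takes part in outward transport and brings tubulin to the tip, held the single genes with the highest ratio in either library. For Nsl1, 10 of its 11 genes passed 3 times the local level, against 24.3% of all genes, and 4 did for Msl1, against 24.0%, with median ratios of 4.91 and 2.64. These general shares apply to every class of members, and the smaller classes hold too few genes to be set apart from them for Msl1. Cluap1 (chromosome 16, 3908825), an IFT-B subunit needed for cilium assembly, held 41 Msl1 reads, 3.30 times the local level (2.37 to 4.48), and 126 Nsl1 reads, 9.73 times (8.10 to 11.6), the highest Nsl1 ratio of all members. Ift88 (chromosome 14, 58042899), the subunit whose loss in mice gives polycystic kidneys, held 39 Msl1 reads, 4.13 times the local level (2.94 to 5.65), and 70 Nsl1 reads, 5.86 times (4.57 to 7.40), the highest Msl1 ratio. At Ift52 (chromosome 2, 162843090), a core subunit, the libraries diverged, with 22 Msl1 reads, 1.52 times the local level (0.954 to 2.30), and 104 Nsl1 reads, 7.75 times (6.34 to 9.40).

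Ift80 (chromosome 3, 68808492), a peripheral IFT-B subunit, was the IFT-B gene that did not reach 3 for Nsl1, with 21 Msl1 reads, 1.70 times the local level (1.05 to 2.60), and 31 Nsl1 reads, 2.81 times (1.91 to 3.98). Ift57 and Ift81, a peripheral subunit and a tubulin-binding subunit, had almost equal ratios in both libraries, 3.94 and 3.78 at Ift57 and 3.67 and 3.68 at Ift81. In the remaining 5 genes, Ift172, Traf3ip1, Ift46, Ift20 and Ift74, the Msl1 ratio lay between 2.05 and 2.89 and the Nsl1 ratio between 3.47 and 5.71.

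The IFT-A complex serves the return trains and the entry of membrane receptors. Of its 5 genes, 4 passed 3 times the local level for Nsl1 (24.3% of all genes) and 1 for Msl1 (24.0%), and the Nsl1 ratios were close to each other, from 2.93 to 4.49. Ift122 (chromosome 6, 115803526), a core subunit, held the lowest Msl1 and the highest Nsl1 ratio of the complex, 15 Msl1 reads, 1.23 times the local level (0.691 to 2.04), and 59 Nsl1 reads, 4.49 times (3.42 to 5.79). Ift140 (chromosome 17, 25153336), another core subunit, held 35 Msl1 reads, 3.37 times the local level (2.35 to 4.69), and 53 Nsl1 reads, 4.38 times (3.28 to 5.72), so that its intervals overlapped. Ttc21b (chromosome 2, 66094674), the subunit also known as Ift139, held 19 Msl1 reads, 2.42 times the local level (1.45 to 3.77), and 29 Nsl1 reads, 2.93 times (1.96 to 4.20). Wdr19 and Wdr35, the remaining subunits, lay between these, with Nsl1 ratios of 3.76 and 3.75.

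Among the 5 motor genes, 4 passed 3 for Nsl1 (24.3% of all genes) and 1 for Msl1 (24.0%). Dync2h1 (chromosome 9, 7176957), the heavy chain of dynein-2, held 14 Msl1 reads, 1.47 times the local level (0.805 to 2.47), and 64 Nsl1 reads, 7.09 times (5.46 to 9.06). Its partner Dync2li1 (chromosome 17, 85025836), the light intermediate chain, held the lowest ratios of the group in both libraries, 11 Msl1 reads, 0.972 times the local level (0.485 to 1.74), and 26 Nsl1 reads, 1.89 times (1.24 to 2.77), and its Msl1 interval included the local level. Hence the chains of the same motor stood far apart for Nsl1, and their Nsl1 intervals did not overlap.

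The kinesin-2 genes all passed 3 for Nsl1. Kif3b (chromosome 2, 153117149), a motor subunit, held 42 Msl1 reads, 3.44 times the local level (2.48 to 4.64), and 50 Nsl1 reads, 3.87 times (2.87 to 5.11). Kif3a (chromosome 11, 53381028), the motor subunit with which it pairs, held 36 Msl1 reads, 2.25 times the local level (1.58 to 3.12), and 56 Nsl1 reads, 3.004 times (2.27 to 3.90), just past the threshold for Nsl1. Kifap3, the subunit that links the motor to cargo, had ratios of 2.18 for Msl1 and 5.84 for Nsl1 (4.26 to 7.81). The Nsl1 interval of Kifap3 lay above that of Kif3a and overlapped that of Kif3b.

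**Figure D2:**
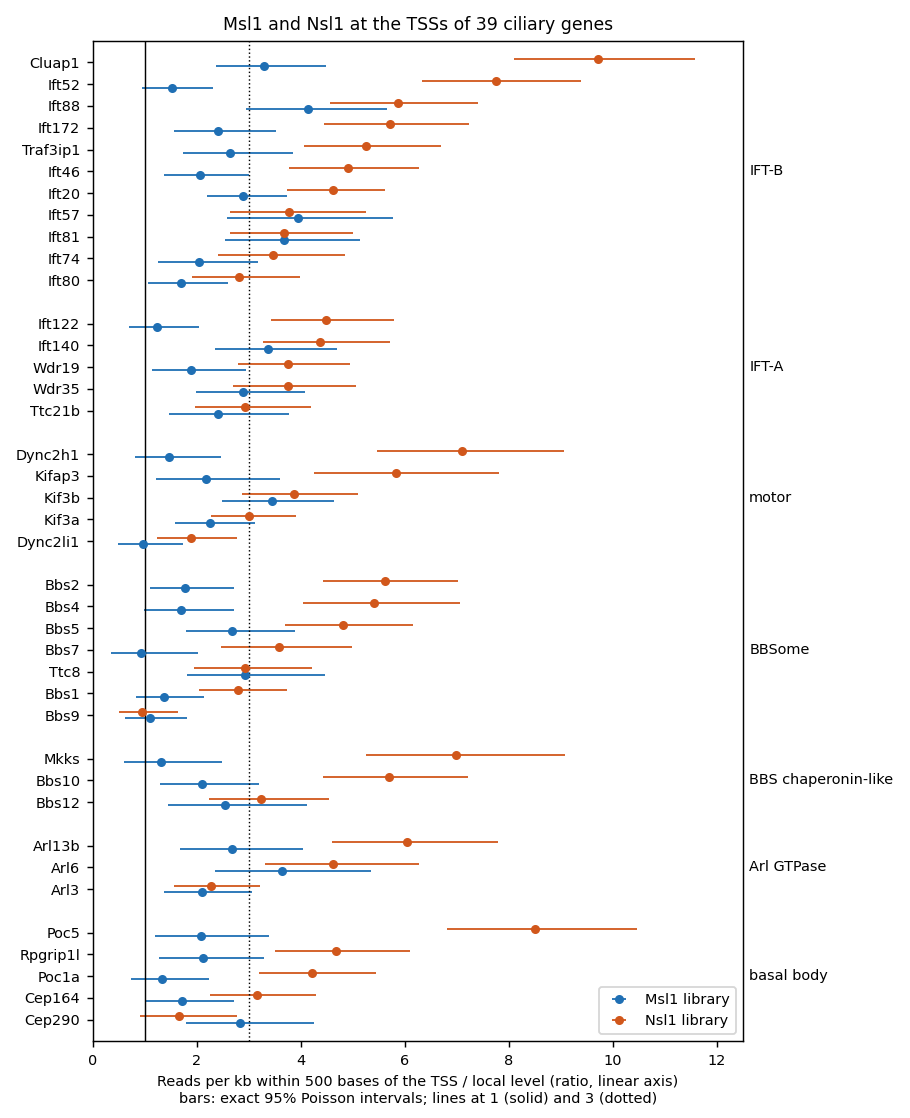
Reads within 500 bases of the TSS divided by the local level (horizontal axis, linear) for each of the 39 genes, grouped by complex, in the Msl1 library (blue) and the Nsl1 library (orange), with exact 95% Poisson intervals as bars. The Nsl1 points reach 9.73 at Cluap1 while no Msl1 point passes 4.13; lines mark the local level and 3 times that level.

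The BBSome genes ranged in Nsl1 ratio from 0.952 to 5.62. For Nsl1, 4 of the 7 passed 3 times the local level (24.3% of all genes), and 0 did for Msl1 (24.0%). Bbs2 (chromosome 8, 96622711), a core subunit, held 21 Msl1 reads, 1.78 times the local level (1.10 to 2.72), and 77 Nsl1 reads, 5.62 times (4.43 to 7.02). Bbs4 (chromosome 9, 59201315), a subunit rich in tetratricopeptide repeats, held 17 Msl1 reads, 1.69 times the local level (0.986 to 2.71), and 53 Nsl1 reads, 5.40 times (4.05 to 7.07). Both genes were thus marked by Nsl1 with intervals that stayed clear of those of Msl1.

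Bbs7 (chromosome 3, 36512399), a partner of Bbs2 in the core, had the lowest Msl1 ratio of all members, with 6 Msl1 reads, 0.926 times the local level (0.340 to 2.02), and 34 Nsl1 reads, 3.57 times (2.47 to 4.99). Ttc8 (chromosome 12, 100158822), also known as Bbs8, differed little between the libraries, with 21 Msl1 reads, 2.92 times the local level (1.81 to 4.47), and 28 Nsl1 reads, 2.92 times (1.94 to 4.22). Bbs9 (chromosome 9, 22295273), a scaffold of the coat, lay at the local level in both, with 15 Msl1 reads, 1.09 times the local level (0.612 to 1.80), and 13 Nsl1 reads, 0.952 times (0.507 to 1.63). Bbs5 and Bbs1, further subunits of the coat, had Nsl1 ratios of 4.81 and 2.80 and Msl1 ratios of 2.68 and 1.36. The TSS of Bbs9 also had the lowest observed over expected CpG ratio of the members, 0.25.

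The place of the TSS mattered at Bbs9. Another annotated start of the gene lies upstream at position -15114 from this TSS, and there Nsl1 held 66 reads, 4.86 times the local level (3.76 to 6.18), and Msl1 19 reads, 1.33 times (0.798 to 2.07). Dync2h1 also had an upstream start, at position -7489, with 69 Nsl1 reads at 8.02 times (6.24 to 10.2) and 32 Msl1 reads at 3.76 times (2.58 to 5.31). For Dync2h1 the Nsl1 level was thus high at both starts and the Msl1 level at the upstream start. With the most upstream start of every gene in use, 7 members passed 3 for Msl1, 17.9% against 23.4% of all genes, and 31 for Nsl1, 79.5% against 24.3%. These were not the same members as before, since Dync2h1 entered and Arl6 (2.74) left for Msl1, and Bbs9 entered and Kif3a (2.99) left for Nsl1.

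Mkks, Bbs10 and Bbs12 encode chaperonin-like proteins that help to assemble the BBSome. All 3 passed 3 times the local level for Nsl1 (24.3% of all genes) and 0 for Msl1 (24.0%). Mkks (chromosome 2, 136717125) held 9 Msl1 reads, 1.31 times the local level (0.597 to 2.48), and 55 Nsl1 reads, 6.98 times (5.26 to 9.09), among the widest gaps between the libraries. Bbs12 (chromosome 3, 37211476) held 16 Msl1 reads, 2.54 times the local level (1.45 to 4.12), and 33 Nsl1 reads, 3.23 times (2.22 to 4.54), and these intervals overlapped. Bbs10 had ratios of 2.10 and 5.69.

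Of the 3 Arl GTPases, Arl13b (chromosome 16, 62846866), which anchors in the ciliary membrane and is mutated in Joubert syndrome, held 22 Msl1 reads, 2.67 times the local level (1.67 to 4.04), and 59 Nsl1 reads, 6.04 times (4.60 to 7.79). Arl6 (chromosome 16, 59638955), the recruiter of the BBSome, held 25 Msl1 reads, 3.63 times the local level (2.35 to 5.36), and 41 Nsl1 reads, 4.62 times (3.32 to 6.27), past 3 in both libraries. Arl3 (chromosome 19, 46647575), which releases lipidated cargo in the cilium, held 26 Msl1 reads, 2.09 times the local level (1.37 to 3.06), and 32 Nsl1 reads, 2.28 times (1.56 to 3.22), past 3 in neither.

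At the centriole and basal body genes, 4 of 5 passed 3 for Nsl1 (24.3% of all genes) and 0 for Msl1 (24.0%). Poc5 (chromosome 13, 97158249), a centriole protein of the distal lumen, held 16 Msl1 reads, 2.09 times the local level (1.19 to 3.39), and 88 Nsl1 reads, 8.50 times (6.82 to 10.5), the Nsl1 ratio next to that of Cluap1. Poc1a (chromosome 9, 106183392), a centriole protein needed for its stability, held 14 Msl1 reads, 1.33 times the local level (0.728 to 2.23), and 58 Nsl1 reads, 4.21 times (3.19 to 5.44). For both genes the intervals were well separated. Cep290 (chromosome 10, 99950923), a transition zone protein, went the other way in nominal terms, with 23 Msl1 reads, 2.83 times the local level (1.80 to 4.25), and 14 Nsl1 reads, 1.66 times (0.905 to 2.78), and its Nsl1 interval included the local level. Cep164, of the distal appendages, and Rpgrip1l, of the transition zone, had Nsl1 ratios of 3.15 and 4.67 and Msl1 ratios of 1.71 and 2.11.

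The balance of the libraries was also measured in the wider window of 2 kb on each side, as Msl1 reads over Nsl1 reads, each per read of its library, with exact conditional 95% intervals. In this window the members held 27 to 161 Msl1 reads and 54 to 177 Nsl1 reads. The median balance was 0.851 for the members and 1.28 for the 14616 genes with at least 100 reads. The interval lay below 1.28, towards Nsl1, at 23 members, 59.0% against 20.3% of those genes, and above it at 1 member, 2.56% against 22.2%.

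At the Nsl1 end stood Bbs7 with a balance of 0.472 (0.292 to 0.744), Poc5 with 0.482 (0.343 to 0.670) and Bbs4 with 0.505 (0.334 to 0.751), and the balance of Poc1a was 0.505 (0.338 to 0.743). These 4 intervals overlapped each other. At the Msl1 end stood Ift140 with 1.53 (1.19 to 1.96), Arl3 with 1.60 (1.15 to 2.23) and Ift80 with 2.71 (2.05 to 3.60). The interval of Ift80 alone cleared the general median, although its TSS ratio for Msl1 was only 1.70.

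**Figure D3:**
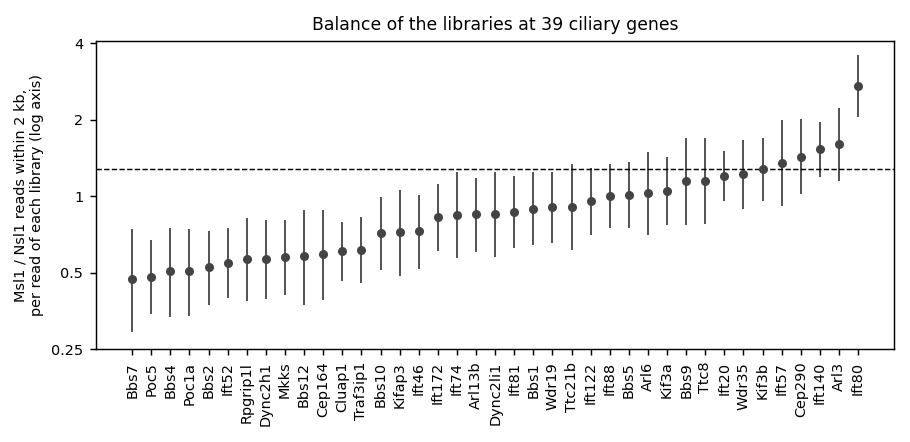
Msl1 reads over Nsl1 reads within 2 kb of the TSS, per read of each library (vertical log axis), for the 39 genes in order, with exact conditional 95% intervals as bars. The dashed line is the median of the genes with at least 100 reads, 1.28, and the members run from 0.472 at Bbs7 to 2.71 at Ift80.

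The Msl1 reads of Ift80 lay mostly upstream. From 2000 to 500 bases upstream of its TSS there were 113 Msl1 reads, and from 500 to 2000 bases downstream there were 27. The upstream side is the body of Smc4, a condensin gene that starts 168 bases away on the other strand. The same was seen at Ift140, with 97 Msl1 reads upstream and 15 downstream, where no start of another gene was annotated on the other strand within 1 kb and the nearest, that of Cramp1l, lay 1161 bases upstream.

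In all, 10 of the 39 genes had the TSS of another gene on the other strand within 1 kb upstream, 25.6% against 11.5% of all genes, and in 9 the neighbour was protein-coding, 23.1% against 8.86%. The pairs were Arl3 with Sfxn2, Bbs12 with Cetn4, Cep290 with Tmtc3, Cluap1 with 1700037C18Rik, Ift122 with Mbd4, Ift20 with Tnfaip1, Ift80 with Smc4, Kif3a with A430108G06Rik, Mkks with 2210009G21Rik and Rpgrip1l with Fto. The distance between the starts ranged from 108 bases at Bbs12 to 939 bases at Cep290. More Msl1 reads lay upstream than downstream at 7 of these 10 genes, against 48.1% of all genes with such a neighbour, and at 8 of the 29 others, against 28.3% of all genes without. For Nsl1 it was 6 of 10 against 56.5%, and 9 of 29 against 42.8%.

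Pooled over the 10 divergent genes, the Msl1 reads per kb on the upstream flank were 0.952 times those within 500 bases of the TSS (0.811 to 1.12), whereas on the downstream flank they were 0.528 times (0.438 to 0.635). For the 29 others the values were 0.525 upstream and 0.621 downstream. All divergent genes of the genome had 0.689 upstream and 0.678 downstream. For Nsl1 the divergent members had 0.342 upstream (0.296 to 0.396) and 0.242 downstream (0.205 to 0.285). The 29 others had Nsl1 values of 0.260 and 0.285, and all divergent genes 0.335 and 0.289. The pooled reads of both libraries at the divergent members therefore lay more upstream than downstream, with an upstream Nsl1 value near that of all divergent genes. Ift80 held 113 of the Msl1 reads on the upstream flank, and without it, an alternative chosen after seeing the data, the Msl1 values were 0.724 upstream (0.606 to 0.866) and 0.499 downstream (0.410 to 0.608). The intervals of these pooled values cover counting error only and not the spread between genes. Gene by gene, the upstream Msl1 value of the 10 ran from 0.208 at Bbs12 to 3.59 at Ift80.

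Along the start of the gene the libraries also differed in shape. Pooled over the 39 genes, the density between 500 and 2000 bases downstream was 0.594 times that within 500 bases for Msl1 (0.540 to 0.653) and 0.273 times for Nsl1 (0.252 to 0.296). Over all genes these values were 0.821 and 0.475. The pooled intervals cover counting error only and not the spread between genes. Gene by gene, the ratio of the members ran from 0.213 to 1.33 for Msl1 and from 0.138 to 1.33 for Nsl1. Msl1 had the higher ratio at 36 members, 92.3% against 65.5% of all genes, and the intervals were separate in that direction at 9, 23.1% against 14.6%, and in the other at 0 against 0.605%.

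The downstream ratio depends on the height at the TSS, so the downstream flank was also set against the local level. For Msl1 it was 1.34 times the local level at the members and 1.79 times at all genes. For Nsl1 it was 1.21 at the members and 1.19 at all genes. Hence, relative to the local level, the lower Nsl1 ratio went with a higher TSS level and a similar flank, and the lower Msl1 ratio with a lower flank. The local level of a long gene takes in part of its own body, and the paper reported most Msl1 peaks in gene bodies. An effect of this on the Msl1 values was not tested.

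The mean profiles, averaged over 3 bins of 50 bases, gave the position of the maximum. For the members it lay 300 to 350 bases downstream for Msl1, at 3.83 times the local level, and 50 to 100 bases downstream for Nsl1, at 6.87 times. For all genes it lay 200 to 250 bases downstream for Msl1, at 3.24 times, and 0 to 50 bases downstream for Nsl1, at 3.72 times. The members thus stood higher than all genes at the Nsl1 maximum and near them at the Msl1 maximum. The width at the middle between the lowest and highest values was 450 bases for Msl1 at the members and 700 bases at all genes, whereas for Nsl1 it was 600 and 500 bases.

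**Figure D4:**
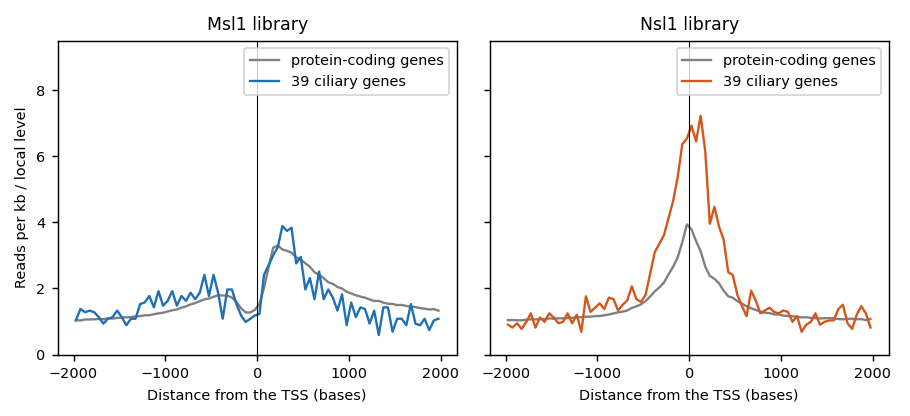
Mean reads per kb divided by the local level (vertical axis) in unsmoothed bins of 50 bases, by distance from the TSS (horizontal axis, bases, downstream to the right), for the 39 genes (coloured) and all protein-coding genes (grey) in the Msl1 library (left) and the Nsl1 library (right). The Msl1 line of the members peaks downstream of the TSS beside the grey line and falls below it farther downstream, and the Nsl1 line peaks near the TSS above the grey line.

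The members were richer in CpG than protein-coding genes in general, with an observed over expected CpG ratio of at least 0.6 at 31 of 39, 79.5% against 46.3%. Among these 31, Nsl1 passed 3 times the local level at 28, 90.3%, and Msl1 at 7. Among the 10322 CpG-rich genes of the genome it was 43.3% for Nsl1 and 44.5% for Msl1. The median ratios of the 31 were 4.62 for Nsl1 and 2.25 for Msl1, against 2.67 and 2.83 for all CpG-rich genes. Among CpG-rich genes the members hence lay higher for Nsl1 and lower for Msl1. The classes were not matched, since the median CpG ratio was 0.748 in the 31 members and 0.785 in all CpG-rich genes, and the median GC content 56.5% and 61.7%. The 8 members with a lower CpG ratio had median ratios of 2.86 for Nsl1 and 1.42 for Msl1. Both were nominally above those of all genes with a lower CpG ratio, 1.28 and 1.23. The ratios of the 8 ran widely, from 0.952 to 7.09 for Nsl1 and from 0.926 to 2.92 for Msl1. This class was matched less well in CpG, with a median ratio of 0.549 against 0.251, and its median GC content was 53.0% against 48.7%.

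Across the 39 genes the log2 ratios of the libraries followed each other little, with Pearson's r of 0.22 and Spearman's rho of 0.11, whereas over 21320 genes r was 0.583 and rho 0.598. These points share the libraries and the CpG content. From the 5th to the 95th percentile, the Msl1 ratios ran from 1.08 to 3.70 at the members and from 0.444 to 4.69 over all genes. The Nsl1 ratios ran from 1.87 to 7.83 and from 0.552 to 6.89. An effect of the narrower ranges of the members on the correlation was not tested. The log2 Nsl1 ratio of the members went with CpG content at r of 0.553 and rho of 0.322, and the log2 Msl1 ratio at r of 0.403 and rho of 0.313. Over the 21320 genes these values were 0.526 and 0.542 for Nsl1 and 0.637 and 0.655 for Msl1. Among the members, Bbs9 held both the lowest CpG ratio, 0.25, and the lowest Nsl1 ratio, 0.952. The correlations were not computed without it.

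The motifs divided the members differently. The 9 genes with the ETS core, 23.1% against 11.1% of all genes, were Arl6, Bbs4, Cep164, Cluap1, Dync2h1, Ift20, Ift88, Poc1a and Poc5. Their median ratio was 5.40 for Nsl1 and 2.09 for Msl1, and for the 30 others it was 3.77 and 2.14. Of all genes with the core, 69.9% passed 3 for Nsl1 and 44.4% for Msl1, and the members with it passed at 9 of 9 and 3 of 9. Since the ETS core was singled out for these Nsl1 values, they are a description only. The 6 genes with the NRF1 element described next had a median Nsl1 ratio of 4.50, with 5 past 3, and a median Msl1 ratio of 2.21, with 0 past 3, where 59.4% and 40.1% of all genes with the element passed.

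The 6 genes with a full X-box had median ratios of 3.67 for Nsl1 and 2.70 for Msl1, and ranged from 1.89 at Dync2li1 to 9.73 at Cluap1 for Nsl1. Of these, 4 passed 3 for Nsl1 and 3 for Msl1, and of the 33 members without it 27 and 4 did. Of all genes with an X-box, 41.9% passed 3 for Nsl1 and 23.6% for Msl1. The palindromic X-box of Dync2li1 thus stood at a member with low ratios in both libraries. The NRF1 element, GCGCA and GCGC with any base between them, was found at 6 members, 15.4% against 6.08% of all genes, and the YY1 element AAGATGGC at 1, Ift88, 2.56% against 3.45%. These matches are descriptions of the letters and not of binding.

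To see how far the pattern reached, other ciliary genes were counted. Of 13 further genes, 10 passed 3 times the local level for Nsl1 and 1 for Msl1, with median ratios of 3.86 and 1.95. This list holds IFT and transport motor genes with related factors, among them the BBSome regulator Lztfl1 but not a BBSome subunit. Over all genes the shares were 24.3% and 24.0% and the medians 1.72 and 1.87, and these are the reference for the lists that follow. The IFT-B gene Ttc26 had the highest values of this list, an Nsl1 ratio of 12.7 (10.8 to 14.9) and an Msl1 ratio of 3.83 (2.80 to 5.11). Of 27 transition zone, appendage and centriole genes, 18 passed for Nsl1, 66.7%, and 13 for Msl1, 48.1%, with medians of 4.004 and 2.56. The exact binomial interval of this Msl1 share, 28.7% to 68.1%, lay above the general 24.0% and overlapped that of the members. The Msl1 share of the 39 members was 17.9% (exact binomial interval 7.54% to 33.5%), about the general level. These intervals take genes as independent. The 27 genes had a median CpG ratio of 0.746. Of all CpG-rich genes, 44.5% passed for Msl1 and 43.3% for Nsl1, with medians of 2.83 and 2.67. The Msl1 share of the 27 genes was thus near that of CpG-rich genes. The highest ratios of this list were those of Cep135, a centriole gene, at 12.1 for Nsl1 and of Ttbk2, a kinase gene of early cilium assembly, at 6.30 for Msl1.

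Of 25 genes linked to the motile axoneme, not all of them parts of it, 2 passed for Nsl1, 8.0% against 24.3% of all genes. They were Lrrc6 (3.17) and Spag16 (3.16). For Msl1 3 passed, 12.0% against 24.0%, namely Dnahc9 (4.27), Spag16 (4.19) and Spag6 (3.23). The medians, 2.04 for Nsl1 and 1.77 for Msl1, were close to those of all genes. The list is also poorer in CpG, with a median ratio of 0.469 against 0.702 for the 39 members.

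The products of the Hedgehog genes signal through the cilium. Of 14 genes, 0 passed for Nsl1, against 24.3% of all genes, with Sufu the highest at 2.56, and 5 passed for Msl1, 35.7% (interval 12.8% to 64.9%), which covers the general 24.0%. These were the transcription factor gene Gli3 (6.40), the ligand gene Shh (4.29), the transducer gene Smo (4.04) and the co-receptor genes Gas1 (4.54) and Cdon (3.23). The medians were 1.53 for Nsl1 and 2.73 for Msl1. Of the 6 Rfx factor genes, Rfx3 passed in both libraries, at 4.72 for Msl1 and 3.08 for Nsl1, and Rfx7 passed for Msl1 at 3.59.

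**Figure D5:**
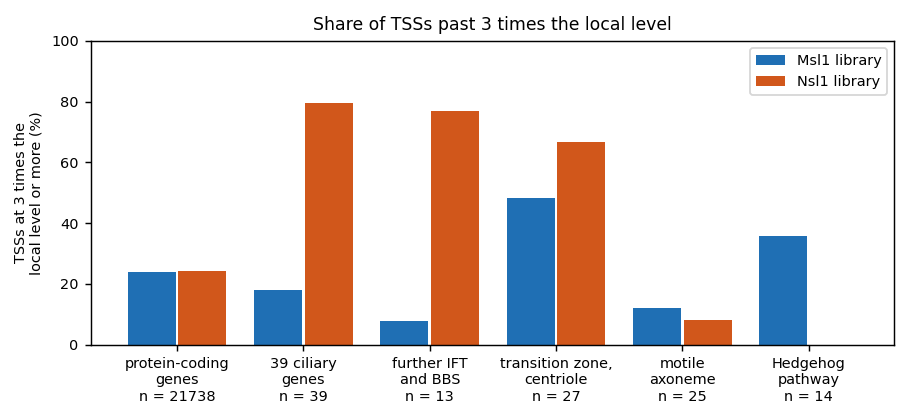
Share of TSSs at 3 times the local level or more (vertical axis, %) in the Msl1 library (blue) and the Nsl1 library (orange), for all protein-coding genes, the 39 ciliary genes and 4 related lists, with the number of genes under each pair of bars. The Nsl1 bar is the taller in the 39 genes (79.5%), the further IFT and related genes (76.9%) and the transition zone and centriole genes (66.7%). It is at 0 for the Hedgehog genes.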

How the data were processed

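Chromatin of wild type mESCs precipitated with anti-Msl1 or anti-Nsl1 was sequenced as single-end reads, with 1 library each. Per the labels, the authors used CASAVA 1.8.2 and aligned to mm9 with Bowtie 0.12.7. They deposited 1 line for each aligned read, not normalized, with its coordinates and an alignment score of 255 on every line, which was not used. An Input library was not used here.

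Here repeats of a position and strand (18.3% of nuclear Msl1 and 4.56% of nuclear Nsl1 reads) and mitochondrial reads were left out. Reads were moved to the middle of fragments of 217 bases (Msl1) and 133 bases (Nsl1), from strand cross-correlation on chromosomes 16 and 19. Such repeats can also be distinct molecules at strong sites, and the removal lowers high counts. TSSs came from GENCODE vM1 on mm9, 1 per protein-coding gene, at the transcript with the longest coding sequence. Genes with fewer than 90 local reads in either library, 621 of 22359, were left out of the shares. Counts and intervals were computed with scipy 1.17.1, pandas 2.3.3 and numpy 2.4.6 under Python 3.11.15, and plots were drawn with matplotlib 3.10.9. The counting was tested on simulated data. The members, lists, motifs and thresholds were chosen with earlier results of these data known. In each class the genes with the highest and lowest ratio in each library are named, with the ends of the balance, Poc1a and the genes beside the threshold. Of the names on the other ciliary lists, 10 matched no protein-coding gene of this annotation, of which Ift22, Dync2i1 and Talpid3 are newer names of genes counted as Rabl5, Wdr60 and 2700049A03Rik.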

Additional observations from a re-analysis of the deposited data

How the results depend on the processing

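No paired analysis was possible because each antibody had 1 library. Of the 39 members, 7 (Msl1) and 31 (Nsl1) passed the threshold in the main setting, against 24.0% and 24.3% of all genes. With a window of 1000 bases on each side the counts became 4 and 17 (18.5% and 13.7% of all genes). With the genome level as denominator they were 16 and 34 (43.3% and 33.1%). They were 25 and 36 at a fold of 2 (46.5% and 41.8%), and 0 and 13 at a fold of 5 (3.68% and 9.99%). The median ratio became 2.76 (Msl1) and 5.45 (Nsl1) with the genome level, and 2.88 for Nsl1 with 1000 bases on each side. Counted from 1000 to 2000 bases, the pooled downstream ratio fell to 0.494 (Msl1) and 0.246 (Nsl1). With reads within 500 bases, the median balance of Msl1 to Nsl1 was 0.540, against 1.09 over all genes with at least 100 reads within 2 kb. Without Ift80, chosen after seeing the data, the pooled upstream Msl1 ratio of the members with a divergent neighbour was 0.724 in place of 0.952. With all reads kept the counts were 8 and 31 (24.1% and 24.5% of all genes), and with a window of 250 bases 5 and 34 (19.1% and 29.4%). Without the genes with a divergent neighbour they were 6 and 24 of 29, 20.7% and 82.8%, against 21.1% and 19.7% of all such genes. In each of these settings more members passed for Nsl1 than for Msl1. The windows held as few as 6 Msl1 reads, so that small differences between members were not detectable at this depth, and nothing here measures variation between cultures or precipitations.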
